A study of Sus scrofa with 9 samples.

Results

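The transcripts of 9 interferon-stimulated genes were followed through a heat exposure of porcine immature Sertoli cells: MX1, MX2, IFIT1, IFIT2, IFI44L, ISG15, IRF1, IRF7 and IRF9. They were picked by name from the deposited gene table, so they are 9 of 20681 genes, and each of the 9 was found there. Interferons are secreted proteins that a cell releases on sensing foreign or misplaced nucleic acid. Their receptors act through JAK kinases on STAT proteins, which join IRF9 to form the factor that switches on interferon-stimulated genes, while IRF1 and IRF7 are transcription factors that raise interferon and its targets further. The products of MX1, MX2, IFIT1 and IFIT2 block steps of virus replication, and Sertoli cells, the nurse cells of the seminiferous cords, are known to carry such antiviral genes.

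The cells were labelled as immature Sertoli cells from pig testes at 80 to 90 days of gestation, grown at 37 °C and 5% CO2 in medium with 10% serum. Control cells (3 libraries) were taken before heat, HS0.5 cells (3 libraries) directly after 0.5 h at 43 °C, and HS0.5-R36 cells (3 libraries) after that exposure followed by 36 h back at 37 °C. All groups were seeded 6 h before the heat step, per the labels. The labels do not say whether replicates were separate cultures or animals, so each p-value measures only the spread between these libraries, which may be technical. The comparisons at 36 h have no unheated library of the same age in culture, so recovery from heat and 36 h of further culture cannot be told apart.

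The libraries held 18110565 to 21034021 recovered reads, and 1 read in a gene of 1 kb stood for 0.0413 to 0.0576 FPKM (fragments per kilobase of gene, scaled by the size of the library). The heat response was present at 0 h, with HSPA6, an inducible HSP70 gene, higher by 5.35 and DNAJB1, its HSP40 partner, by 2.66 in log2(FPKM + 1). HSPA6 went from 0.0272 to 45.5 FPKM (5 and 8232 reads), so the added 1 understates its rise. Genes above 0 numbered 16165 to 16402 in the control, 16234 to 16273 in the HS0.5 and 17264 to 17403 in the HS0.5-R36 libraries. The HS0.5-R36 libraries stood apart on the first principal component (71.9% of the variance), and control replicate 2 on the second (17.1%). Of the Sertoli markers, SOX9, WT1 and AMH stood at 6.47, 7.96 and 22.3 FPKM in control. INHA and DMRT1, 2 other markers, were at 0 reads in all control and HS0.5 libraries, and NR5A1 and DHH were near 0. Of 10 kidney and Wolffian duct tubule markers, 7 reached 1 FPKM.

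All 9 genes had reads in each group. In control cells ISG15, a ubiquitin-like protein that is attached to other proteins, had the highest level per length of the 9 genes, with a mean of 28.7 FPKM, followed by IRF1 with 19.6 and MX1 with 6.97. IRF7 and IFIT2 stood close together at 2.99 and 2.93 FPKM, IFI44L at 1.34, IFIT1 at 0.709 and MX2 at 0.613. IRF9 was at the limit of detection, with a mean of 0.0435 FPKM. At 0 h IRF1 had the highest level (26.1 FPKM) and ISG15 followed with 20.7. After recovery IRF1 led with 23.0 FPKM, and ISG15 (11.8) and MX1 (10.9) lay within each other's spread.

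**Figure D1:**
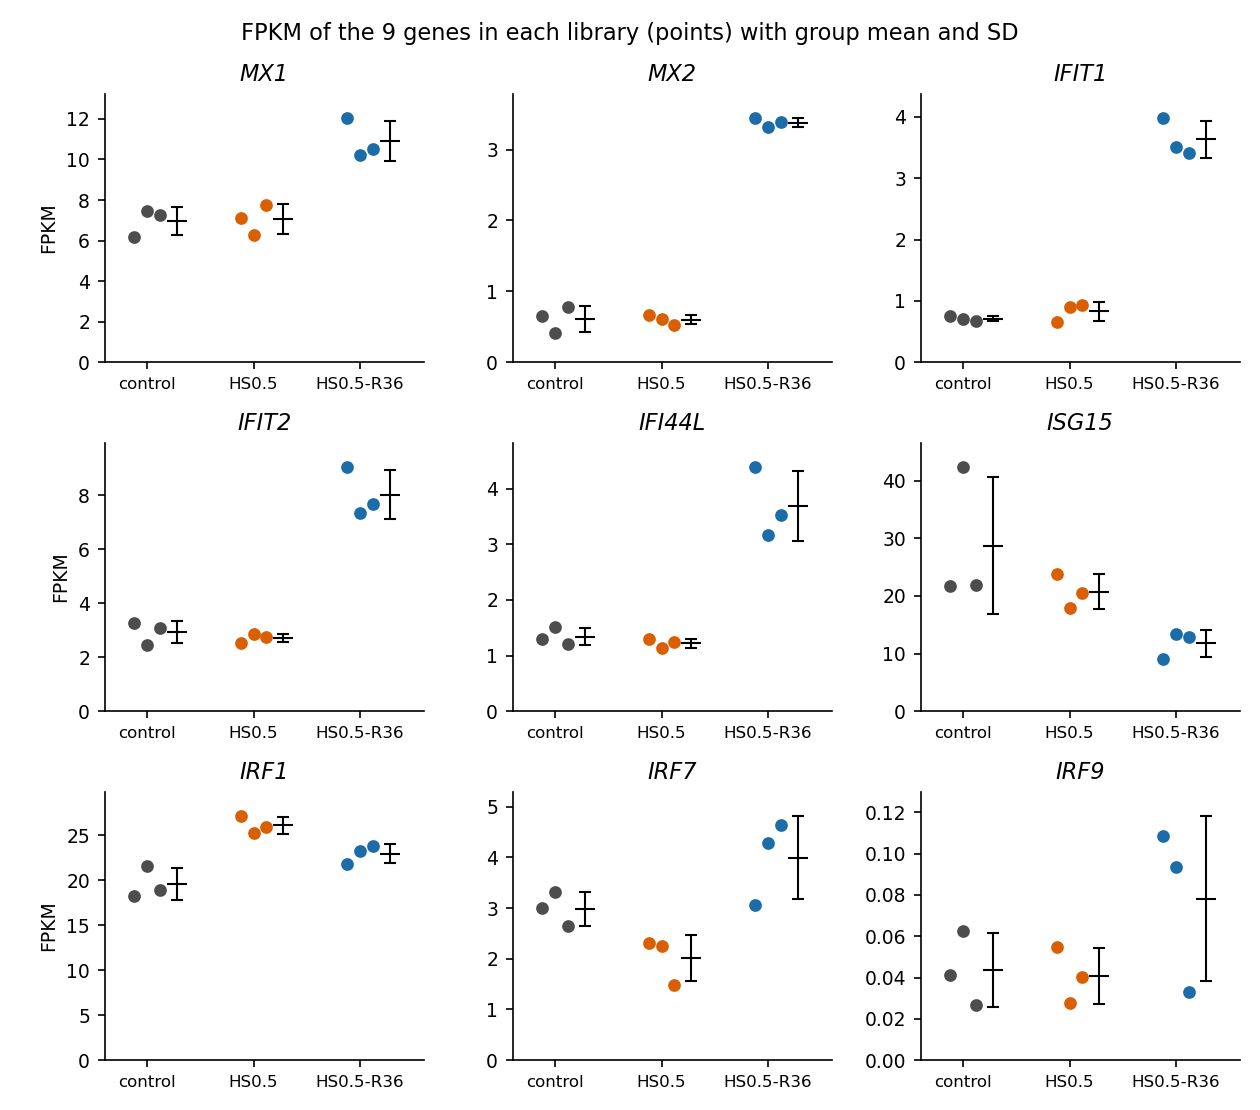
FPKM of the 9 interferon-stimulated genes (vertical axes, from 0, each with its own range) in control, HS0.5 and HS0.5-R36. Points are the 3 libraries of a group, and the bar beside them is the mean and SD. MX1, MX2, IFIT1, IFIT2 and IFI44L are higher in the 3 HS0.5-R36 libraries than in the other 6, ISG15 is lower there, and IRF1 is highest in HS0.5.

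The HS0.5 to control comparison asks what heat changes by the end of the exposure, and 0.5 h of further culture goes with it. The antiviral effector genes did not pass the test at this time. The regulator IRF1 rose, and it was the only one of the 9 genes called at an adjusted p under 0.05 (limma on log2(FPKM + 1), adjusted over 11479 genes), where 3.62% of all genes tested were called, 2.29% higher and 1.32% lower.

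IRF1 (ENSSSCG00000014277, chromosome 2, 134776134 to 134783646, minus strand) encodes an activator of interferon and class I genes that many stress signals induce. It read 18.3, 21.6 and 18.9 FPKM in control replicates 1, 2 and 3 and 27.1, 25.2 and 25.9 in HS0.5, then 21.8, 23.2 and 23.8 in HS0.5-R36. All 3 HS0.5 libraries lay above all control libraries and above all recovered ones, and the recovered ones lay above control, with replicate 1 at 21.8 just over the highest control. The rise at 0 h was 0.40 ± 0.08 on the log2 scale (SE, limma adjusted p = 0.0345), and 20.5% of the genes tested had all HS0.5 libraries above all controls. At 36 h IRF1 was still above control by 0.22 ± 0.08 (limma adjusted p = 0.0384). The difference between HS0.5-R36 and HS0.5, -0.18, did not pass (limma adjusted p = 0.0839). It passed with library weights, after removal of the length trend and in a fit of only the 2 groups (limma adjusted p = 0.0133 to 0.0272), and without control replicate 2 (0.0158), and its sign turned when libraries were rescaled to 1 common sum (0.15) and after quantile normalization (0.12). The call at 0 h was lost without control replicate 1 or 3, without any of the 3 HS0.5 libraries and without HS0.5-R36 replicate 2 or 3 (limma adjusted p = 0.0622 to 0.134). The call at 36 h was lost without those same control and recovered libraries or any 1 HS0.5 library (0.0525 to 0.13). IRF1 lies within RAD50 on the opposite strand, which had 10.6, 12.2 and 11.9 FPKM in the 3 groups in turn and was not called.

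IRF7 (ENSSSCG00000012853, chromosome 2, 371606 to 375381, minus strand) encodes the factor that drives interferon alpha genes once a first interferon signal has raised it. It read 2.996, 3.32 and 2.65 FPKM in control, then 2.30, 2.25 and 1.49 in HS0.5, and 3.07, 4.28 and 4.64 in HS0.5-R36. The 3 HS0.5 libraries were below all controls, while HS0.5-R36 replicate 1 lay among the control values. The difference at 0 h was -0.41 ± 0.15 and did not pass (limma adjusted p = 0.124), and 20% of the genes tested had all HS0.5 libraries below all controls. At 36 h it was 0.31 ± 0.15 against control, also short of the threshold (limma adjusted p = 0.0989), with a 95% interval of -0.03 to 0.66. It passed without HS0.5-R36 replicate 1 (0.46, limma adjusted p = 0.024) and after rescaling to the same sum (0.59). Between HS0.5 and HS0.5-R36 it rose by 0.73 ± 0.15 (limma adjusted p = 0.00234). Its end overlaps PHRF1 by 88 bp, and PHRF1 went from 32.2 FPKM in control to 23.6 at 0 h (-0.44, not called) and 19.6 at 36 h (-0.69, called).

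IRF9 (ENSSSCG00000002002, chromosome 7, 75126609 to 75139639, minus strand), the DNA-binding part of the complex formed with STAT proteins, was under 1 FPKM in every library and was not tested. It had 3, 5 and 2 reads in control, then 4, 2 and 3 in HS0.5, and 11, 9 and 3 in HS0.5-R36. The recovered libraries overlapped the controls, and the read ratio of 1.81 had a 95% interval of 0.827 to 4.25, which covers counting error only, as do all intervals on reads here. A difference was not detectable at this depth. All but a few bases of the gene lie inside REC8 on the same strand (13022 bp shared), itself at 0.215, 0.213 and 0.102 FPKM, so reads could be assigned to either.

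At 0 h none of the effector genes was called. The 95% interval of the log2 difference was -0.22 to 0.25 for MX1, -0.22 to 0.21 for MX2, -0.11 to 0.30 for IFIT1, -0.32 to 0.16 for IFIT2 and -0.31 to 0.17 for IFI44L. For ISG15 it was wider, -0.95 to 0.18. These are differences of log2(FPKM + 1), which understate the changes of IFIT1 and MX2. Their read ratios were 1.17 (95% interval 0.948 to 1.45) for IFIT1 and 0.987 (0.818 to 1.19) for MX2. In each of these 6 genes the HS0.5 libraries overlapped the controls.

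The question at 36 h is how the recovered cells differ from cells before heat. MX1, MX2, IFIT1, IFIT2 and IFI44L rose, MX2 and IFIT1 by over 5-fold in mean FPKM, and ISG15 fell to 0.410 of its control level. Of the 9 genes, 6 rose and 1 fell, where 28.5% of the genes tested were called higher, 34.6% were called lower and 63.1% were called in either direction. MX2 and IFIT1 were at or above 1 FPKM in the recovered libraries alone, so they entered the test only because they were high there, and the count of 6 supports nothing by itself.

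MX1 (ENSSSCG00000012077, chromosome 13, 204843754 to 204868922, plus strand) encodes a dynamin-like GTPase that traps viral nucleoproteins and is a standard readout of type I interferon. It read 6.18, 7.46 and 7.28 FPKM in control, then 7.13, 6.27 and 7.77 in HS0.5, and 12.1, 10.2 and 10.5 in HS0.5-R36. The first 2 groups overlapped and the recovered libraries lay above all 6 of them, which was so against control for 30.5% of the genes tested. The mean went from 6.97 ± 0.70 to 10.9 ± 0.989 FPKM (SD, n = 3), which on the log2 scale is a rise of 0.58 ± 0.10 (SE, limma adjusted p = 0.0010).

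MX2 (ENSSSCG00000012076, chromosome 13, 204798630 to 204831957, plus strand) is the neighbouring paralog, 11.8 kb upstream of MX1 with no other listed gene between, and in humans restricts lentiviruses. It read 0.646, 0.414 and 0.778 FPKM in control, then 0.663, 0.609 and 0.530 in HS0.5, and 3.44, 3.31 and 3.38 in HS0.5-R36. The recovered libraries were tightly grouped, with an SD of 0.0654 FPKM, and stood 5.52-fold above the control mean. The reads numbered 234 in control and 1657 after recovery, a ratio of 5.56 once scaled (95% interval 4.85 to 6.41). The log2 change was 1.45 ± 0.10 (limma adjusted p = 2.8e-06), and 2.51 in a voom fit of the recovered reads, which adds less to low values. MX2 passed the filter only through the recovered libraries, and without a filter, over 20681 genes, the limma adjusted p was 1.5e-05. How reads shared by the 2 paralogs were counted was not given in the sources used here.

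IFIT1 (ENSSSCG00000010452, chromosome 14, 101214710 to 101249501, plus strand) encodes a protein that binds RNA lacking the methyl marks of the host's cap. It read 0.751, 0.700 and 0.675 FPKM in control, then 0.648, 0.899 and 0.940 in HS0.5, and 3.98, 3.52 and 3.42 in HS0.5-R36. Each recovered library was at least 3.42 FPKM and each of the other 6 was under 1. The mean rose 5.13-fold, the log2 change was 1.44 ± 0.09 (limma adjusted p = 2.2e-06), and reads went from 170 to 1115, a scaled ratio of 5.15 (95% interval 4.38 to 6.09). IFIT1 too passed the filter only through the recovered libraries, and without a filter, over 20681 genes, the limma adjusted p was 1.3e-05.

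IFIT2 (ENSSSCG00000010451, chromosome 14, 101185589 to 101204292, plus strand), which pairs with other IFIT proteins on RNA, lies 10.4 kb from IFIT1 with no other listed gene between. It read 3.25, 2.47 and 3.07 FPKM in control, then 2.53, 2.86 and 2.74 in HS0.5, and 9.05, 7.34 and 7.67 in HS0.5-R36. The recovered libraries lay above all others, and the means were 2.93 ± 0.408 and 8.02 ± 0.904 FPKM (SD, n = 3). The log2 change was 1.20 ± 0.11 (limma adjusted p = 1.3e-05). IFIT1 and IFIT2 both lie within LIPA, a lysosomal lipase gene on the opposite strand, which went from 5.16 to 8.21 FPKM (0.58, called). Whether the counting used strand is not given, and the part of LIPA reads in these values was not tested.

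IFI44L (ENSSSCG00000027660, chromosome 6, 134659633 to 134680050, minus strand), a common member of human interferon signatures, read 1.29, 1.51 and 1.21 FPKM in control, then 1.29, 1.13 and 1.24 in HS0.5, and 4.39, 3.17 and 3.54 in HS0.5-R36. The recovered group did not overlap the others. The mean went from 1.34 ± 0.154 to 3.70 ± 0.630 FPKM (SD, n = 3), and the log2 difference was 1.00 ± 0.11 (limma adjusted p = 4.0e-05).

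ISG15 (ENSSSCG00000040575, chromosome 6, 63363173 to 63364208, plus strand) went the other way. It read 21.8, 42.4 and 21.9 FPKM in control, then 23.9, 17.9 and 20.5 in HS0.5, and 9.05, 13.4 and 12.9 in HS0.5-R36. All recovered libraries lay below all others (36.4% of the genes tested lay so against control), and control replicate 2 lay far above the other controls. The mean was 28.7 ± 11.8 FPKM in control and 11.8 ± 2.38 after recovery (SD, n = 3), and the log2 difference was -1.17 ± 0.25 (SE, limma adjusted p = 0.00286). Without control replicate 2 the change was -0.86 (limma adjusted p = 0.00159). ISG15 is short, 634 bp, and the 831 tested genes under 1 kb had a median of 0.31 log2 above the other controls in control replicate 2, against 0.05 over all genes. After removal of the length trend of every library the change was -1.02, and with library weights -0.74.

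**Figure D2:**
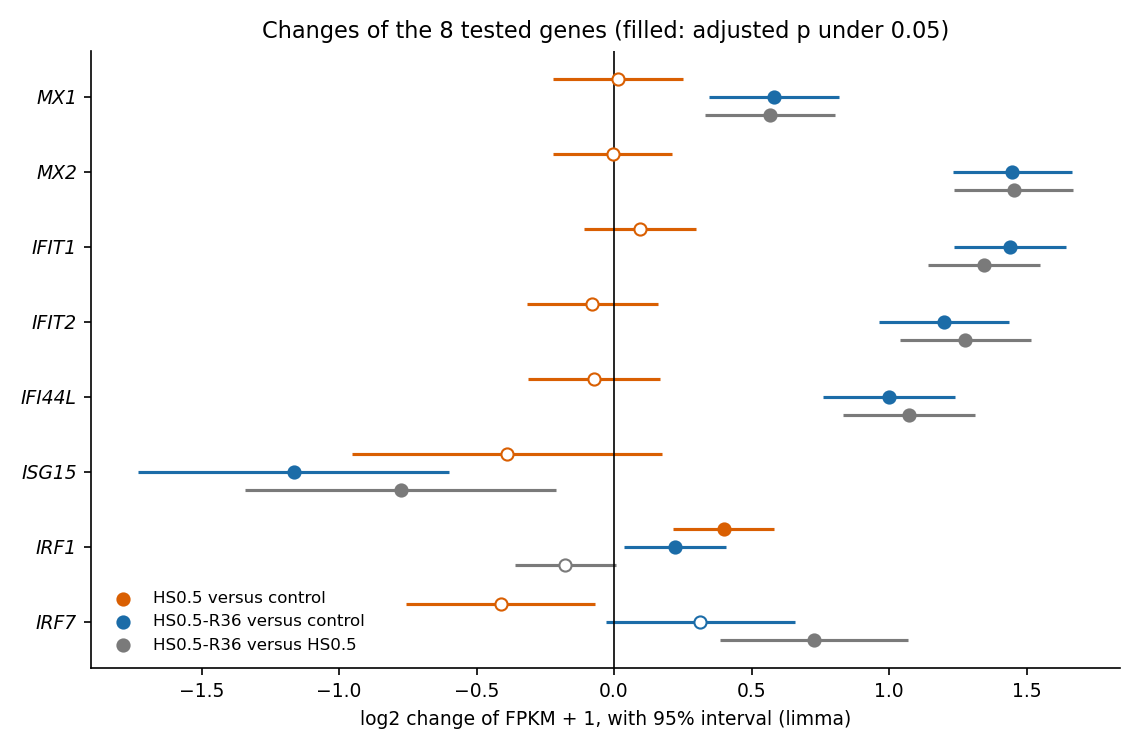
Log2 differences of FPKM + 1 (horizontal axis) of the 8 tested genes in the 3 comparisons, with 95% intervals from limma. Filled points passed an adjusted p under 0.05: IRF1 alone at 0 h, and at 36 h against control all but IRF7, with ISG15 on the negative side at -1.17.

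The comparison of HS0.5-R36 with HS0.5 asks what changes between 0 h and 36 h after heat, and the control libraries enter it only through the shared estimate of the spread and the filter. MX2 rose by 1.45, IFIT1 by 1.34, IFIT2 by 1.28, IFI44L by 1.07, IRF7 by 0.73 and MX1 by 0.57, and ISG15 fell by 0.78. Of the 9 genes, 6 were called higher and 1 lower, where 28.8% of the genes tested were called higher, 35% lower and 63.8% in all. MX2 and IFIT1 are again in the test only through their recovered libraries, so this count supports nothing by itself. For IRF1 all recovered libraries lay below all HS0.5 libraries, as for 41.6% of the genes tested, and for the 6 genes that rose they lay above, as for 33.6%. The ISG15 call (limma adjusted p = 0.022) was lost without HS0.5 replicate 1 or 3 or HS0.5-R36 replicate 1 (0.0534 to 0.0804) and after rescaling to the same sum (0.0888).

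The deposited FPKM carry a scaling between libraries that the sources used here do not describe. Rescaling every library to the same FPKM sum moved the median of all genes at 36 h by 0.30 log2, from -0.06. Relative to the moved median, the changes from control were 1.44 for MX2, 1.44 for IFIT1, 1.26 for IFIT2, 1.02 for IFI44L, 0.66 for MX1, 0.36 for IRF7, 0.32 for IRF1 and -1.07 for ISG15. No gene of the 8 changed direction at 36 h against control under the alternatives run.

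**Figure D3:**
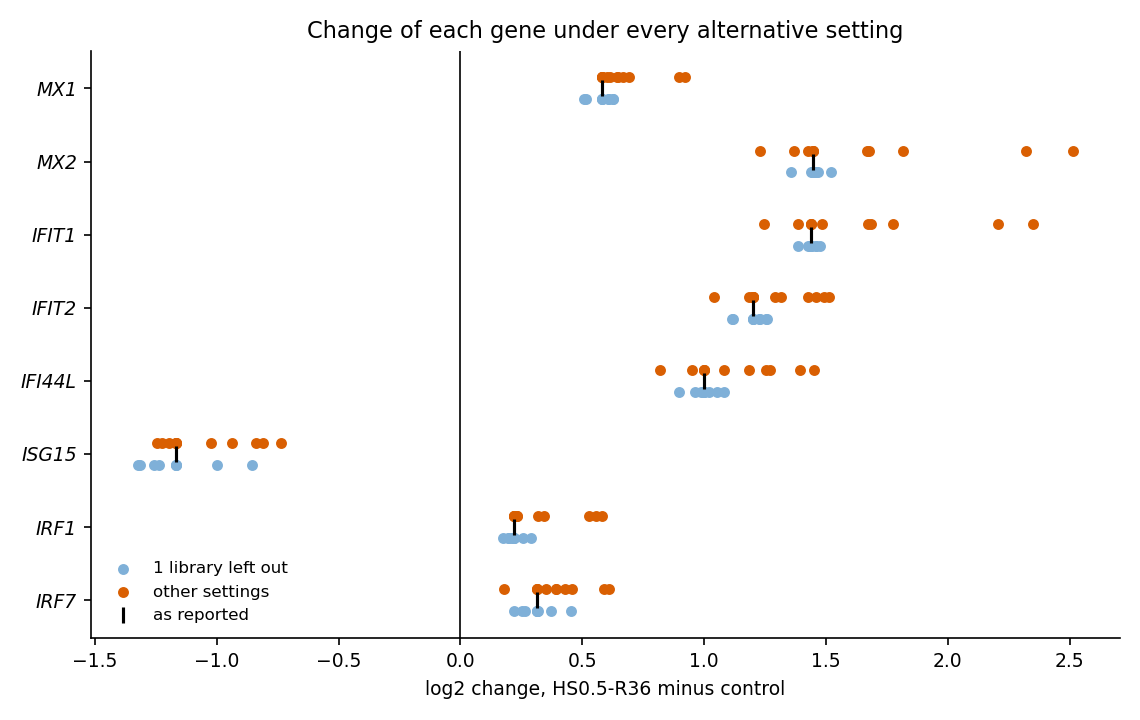
Log2 change from control to HS0.5-R36 (horizontal axis) of each tested gene as reported (black tick), with each library left out (blue) and under the other settings (orange). ISG15 stays between -1.32 and -0.74, while MX2 reaches 2.51 and IFIT1 2.35 where less is added to low values.

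The 9 genes can be compared with one another over the 9 libraries, as a description, since all values share the same libraries and the step at 36 h sets most of each correlation. MX2 and IFIT2 had a Pearson r of 0.99, IFIT1 and IFIT2 of 0.98 and MX1 and IFI44L of 0.96. ISG15 had r of -0.72 to -0.86 with these 5 genes, and IRF1 of -0.05 to 0.11. Among 6949 other genes with a mean of at least 5 FPKM, those most like the mean standardised profile of the 8 tested genes were BECN1, an autophagy gene (r = 0.995, from 26.6 to 41.9 FPKM), the histone deacetylase gene HDAC5 (0.992), ENPP6 (0.991), SPACA9 (0.990) and PTGES3L (0.988). Most like IRF1 were IER5L (0.919, from 36.9 FPKM before heat to 98.8 at 0 h and 44.7 at 36 h), the splicing kinase gene CLK4 (0.910), SPATA2 (0.909), PDCD7 (0.902) and ZNF574 (0.897).

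The rest of the interferon pathway was read from 9 lists of genes. At 0 h, when 3.62% of all genes tested were called, 8 of the lists had no member called. The exception was TRAF6, an adaptor of Toll-like receptor signalling in the list of 9 tested nucleic acid sensors and adaptors, which rose from 3.09 to 6.35 FPKM (0.85, limma adjusted p = 0.00361).

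The counts at 36 h are read against the 28.5% of all genes tested that were called higher and the 34.6% called lower. After rescaling to the same sum, 4965 of all 11479 genes were called higher and 2266 lower, with a median of 0.23, so the split between rises and falls in each list depends on the scaling.

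At 36 h the receptors and the JAK-STAT relay had 5 of 11 tested genes up and 1 down, with a median of 0.18, beside -0.06 for all genes tested, and 9 up and 0 down after rescaling. STAT2, which carries the activation domain of the complex with IRF9, went from 1.24 ± 0.102 to 2.86 ± 0.0070 FPKM (SD, n = 3), a rise of 0.79 (limma adjusted p = 0.000157). The type I receptor chain IFNAR1 rose by 0.40, and the receptor kinase TYK2 fell by 0.46, a call that was lost after rescaling to the same sum (limma adjusted p = 0.59) and after quantile normalization (0.876).

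Of the other regulatory factors, 3 of 6 tested rose and 1 fell at 36 h (median 0.39), and 4 and 1 after rescaling. IRF2BP2, a co-repressor bound by IRF2, rose from 11.99 to 26.3 FPKM (1.07), BATF2 by 0.68 and IRF2 by 0.58, while BATF3 fell from 7.47 to 2.37 FPKM (-1.31). IRF3, which starts interferon transcription, was not called at 36 h (0.20, limma adjusted p = 0.265) or at 0 h (-0.50, 0.0945).

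Among sensors and adaptors, 4 of 9 rose and 2 fell at 36 h, with a median of 0.03, and 5 and 1 after rescaling. TLR3, the receptor for double-stranded RNA, rose from 8.43 to 15.3 FPKM (0.79), the RNA-sensor adaptor MAVS from 5.42 to 9.23 (0.67) and the DNA-sensor adaptor STING1 from 1.97 to 3.02 (0.44). The STING1 call was lost without control replicate 1 or 3 or HS0.5-R36 replicate 2 or 3 (limma adjusted p = 0.0509 to 0.0737) and after quantile normalization (0.168). UNC93B1, which carries Toll-like receptors to endosomes, fell by 0.61, a call lost after quantile normalization (-0.14, limma adjusted p = 0.177). The cytosolic RNA sensors DDX58, IFIH1 and DHX58 were too low to be tested.

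The list of other antiviral effectors had 15 of 34 tested genes up and 8 down (median 0.20), and 20 up and 2 down after rescaling to the same sum. IFITM3, which blocks virus entry at endosomes, rose from 12.6 to 28.7 FPKM (1.12), and the scramblase PLSCR1 from 4.26 to 8.78 (0.89). PNPT1, a mitochondrial RNA nuclease, fell from 21.0 to 10.7 FPKM (-0.92). IFIT5, a paralog of IFIT1 and IFIT2 in the same list, was lower in the deposited values, at 16.3 and then 12.7 FPKM (-0.33). Its recovered reads were 5231 in control and 5236 in HS0.5-R36. The FPKM of all genes summed to 336078 to 406079 in the control libraries and 277289 to 284828 in HS0.5-R36. The fall of IFIT5 therefore depends on the scaling between libraries. IFI44, the paralog of IFI44L, was not called (0.18, limma adjusted p = 0.099). IFIT5 and IFI44 were chosen after their values were seen. From HS0.5 to HS0.5-R36 the list had 15 up and 4 down. OAS1, OASL and RSAD2, which are strongly induced by interferon in many cells, were under 1 FPKM on average in every group and were not tested. OAS1 lies inside OAS2 on the same strand, so reads could be assigned to either. OAS2, also chosen after its values were seen, averaged 5.43, 5.48 and 7.13 FPKM in the 3 groups in turn.

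The machinery that attaches ISG15 was mostly near 0. UBA7, its activating enzyme, averaged 0 FPKM in control and 0.023 after recovery, the ligase HERC5 0.065 and 0.064, and USP18, which removes ISG15, 0.005 and 0.004. Of the 2 genes tested, TRIM25, a ligase of the RNA sensor pathway, rose from 4.68 to 8.69 FPKM (0.77) and the conjugating enzyme UBE2L6 was not called (0.22, limma adjusted p = 0.108). After rescaling to the same sum, 2 of the 2 were called higher. UBE2L6 was also called higher in HS0.5-R36 than in HS0.5 (0.44, limma adjusted p = 0.00657).

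Class I antigen presentation had 6 of 10 tested genes down and 0 up at 36 h (median -0.46), and 4 down and 0 up after rescaling to the same sum. The median of this list was already -0.34 at 0 h, with no gene called. From HS0.5 to HS0.5-R36, 3 of the 10 were called lower (median -0.16), where 35% of all genes tested were. CALR, a chaperone of the peptide loading complex, fell from 522 to 235 FPKM (-1.14), the proteasome activator PSME2 from 4.84 to 2.49 (-0.71) and the peptide transporter TAP2 from 30.0 to 18.03 (-0.71). The immunoproteasome subunit PSMB9 fell by 0.59, a call lost without HS0.5-R36 replicate 1 (limma adjusted p = 0.0592), after quantile normalization (0.0596) and after rescaling (0.16).

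The class II and interferon-gamma list had 2 of 6 up and 2 down (median -0.03), and 3 up and 1 down after rescaling, with a median of 0.30. CIITA, the class II master regulator, rose from 2.59 to 7.07 FPKM (1.17), and SERPING1 rose by 0.61. WARS1 fell by 0.63 and ICAM1 by 0.52, and after quantile normalization neither was called (-0.14 with a limma adjusted p of 0.0728 for WARS1, -0.03 with 0.756 for ICAM1). The ICAM1 call was also lost after rescaling (limma adjusted p = 0.0862). CXCL10, CXCL11 and IDO1, classical interferon-gamma targets, were near or at 0. The negative regulators had 4 of 13 up and 4 down (median 0.13), and 7 up and 3 down after rescaling (median 0.45). The phosphatase gene PTPN2 fell by 0.81 and SOCS3 by 0.81, and PTPN6 rose by 0.78 and PIAS1 by 0.69. Of 9 interferon genes looked up by symbol, IFNE and IFNK were matched. IFNE averaged 0.896, 1.34 and 1.35 FPKM in the 3 groups in turn and was not called against control (0.32, limma adjusted p = 0.0802). It was called with the replicate block (0.042), after the rescalings (0.50 and 0.51), after removal of the length trend (0.43) and without control replicate 3 (0.45), and was -0.02 after quantile normalization. IFNK was too low to be tested.

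**Figure D4:**
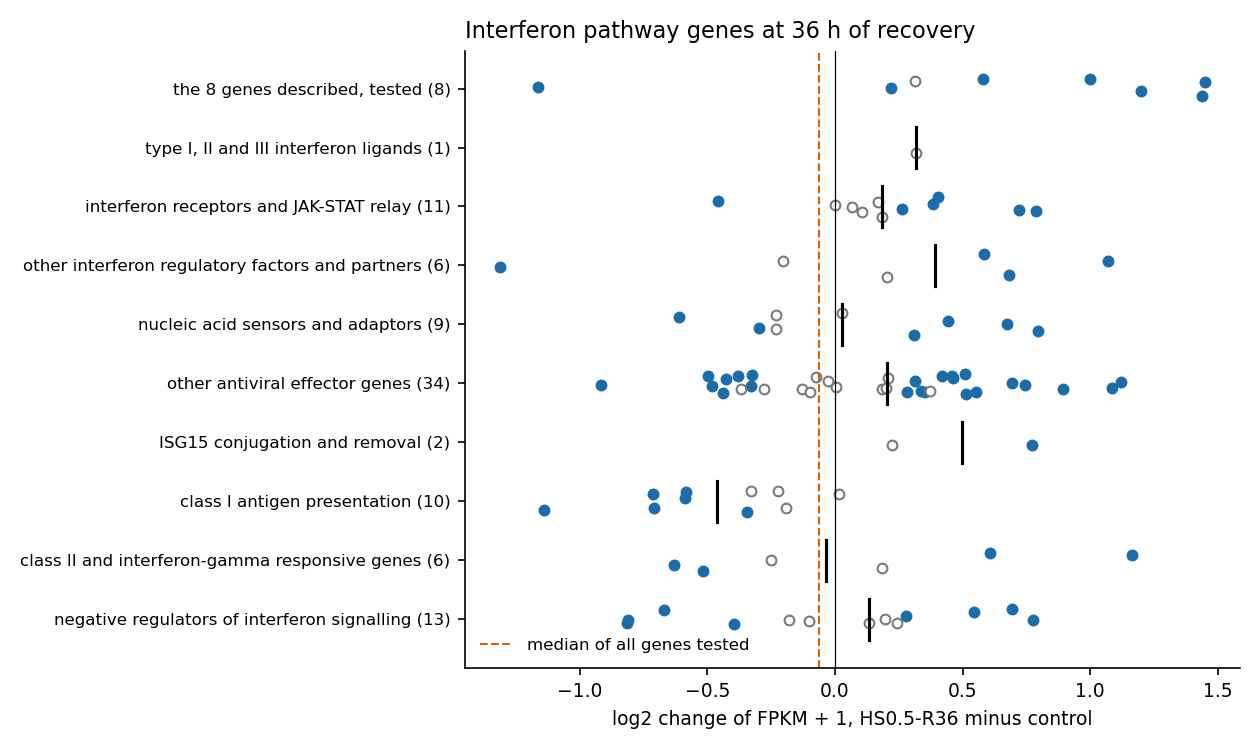
Log2 change from control to HS0.5-R36 (horizontal axis) of every tested gene of the interferon pathway lists (rows, number tested in brackets). Filled points passed an adjusted p under 0.05, open points did not, black bars are list medians (none is drawn for the top row, the 8 genes above), and the dashed line is the median of all genes tested, -0.06. The class I row lies mostly left of the line, with 6 of 10 genes called down.

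Markers of other cell types moved between the groups as well, and their part in these changes was not tested. In bulk libraries fewer cells of a type and less RNA per cell cannot be told apart. The summed FPKM of the leukocyte markers (8 of 14 listed in the table, 3 reaching 1 FPKM) was 7.12 to 9.28 before heat, 6.66 to 7.78 at 0 h and 10.7 to 11.8 at 36 h, with CSF1R and ITGAM near 0 throughout. Plasmacytoid dendritic cell markers, from the cells that make most interferon alpha in blood, summed to under 0.1 FPKM in every library (2 of 7 in the table). Endothelial markers (6 of 7) summed to 1.04 to 1.34 before heat, 1.27 to 1.60 at 0 h and 0.647 to 0.929 at 36 h. This sum followed PECAM1, which went from 0.913 FPKM in control to 0.251 in HS0.5-R36, while TIE1 went from 0.298 to 0.491. VWF, TEK, CDH5 and CLDN5 were at or near 0. Kidney and Wolffian duct tubule markers (7 of 10) summed to 155 to 160 before heat, 134 to 148 at 0 h and 299 to 306 at 36 h. Peritubular markers (5 of 5, nearly all TAGLN) summed to 634 to 972 before heat, 622 to 679 at 0 h and 116 to 157 at 36 h, with MYH11 and ACTA2 near 0. Leydig markers (3 of 7, with CYP17A1 near 0) summed to 2.46 to 3.30, 2.43 to 2.78 and 3.59 to 4.95 in the 3 groups in turn. Germ cell markers (4 of 8, with DDX4 near 0) summed to 2.13 to 3.22, 1.80 to 2.40 and 2.598 to 3.61. Simple epithelium markers (6 of 7) summed to 729 to 1138, 751 to 770 and 557 to 689. From control to HS0.5-R36 the Leydig marker CYP11A1 went from 0.121 to 1.95 FPKM, while STAR, another, went from 2.64 to 2.22. The leukocyte markers CD68 and CD14 went from 2.08 to 3.72 and from 4.55 to 5.41. The germ cell marker DPPA4 went from 1.71 to 2.62. SOX9 fell from 6.47 to 1.24 FPKM and WT1 from 7.96 to 3.78 between control and HS0.5-R36.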

How the data were processed

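RNA sequencing of total RNA covered 9 libraries. Per the submitters' processing notes, bcl2fastq and HISAT2 2.0.5 were used. The authors deposited FPKM per gene with gene lengths and coordinates for 20681 genes, and 8 lines without values were left out. A genome build was not given in the sources used here. By symbol, 12087 of 12229 genes (98.8%) overlapped their gene in the Sscrofa11.1 reference table, and all 9 genes described did. FPKM times gene length gave whole reads for 100% of values (tolerance 1e-06), so reads were recovered. The deposited FPKM imply library sizes of 0.902 to 0.973 times these reads in control and HS0.5 and 1.17 to 1.19 times in HS0.5-R36.

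Genes with FPKM of at least 1 in at least 3 of 9 libraries were tested (11479). With limma 3.58.1 in R 4.3.3, a model with 3 group means and a variance trend was fitted to log2(FPKM + 1) of the 9 libraries together. P-values were two-sided and Benjamini-Hochberg adjusted over all genes tested, with 0.05 as the threshold. The added 1 understates changes of low genes. Intervals on read ratios are exact at 95%. The test was tested on simulated data first.

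The 9 genes, the lists and the tests were chosen with earlier results of these data known. In each pathway list, up to 4 called genes with the largest change at 36 h, up to 2 in the other comparisons, or the most expressed gene where none was called, were eligible to be named. A few genes of the lists are not reported here by name. Replicate numbers were not used as pairs: libraries of the same number correlated at -0.43 to 0.26 after group means were removed, and 2 of 9 matched their own number best. Alternatives were other pseudocounts, filters, scalings and variance models, removal of the length trend, fits of 2 groups, replicate blocks and leaving out each library.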

Additional observations from a re-analysis of the deposited data

Results flagged for a closer look

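The change from control at 36 h differed from the change at 0 h for 7 of the 9 genes. Both changes share the control libraries, so their difference is the HS0.5-R36 to HS0.5 contrast of the limma fit. It was 0.57 log2 for MX1, 1.45 for MX2, 1.34 for IFIT1, 1.28 for IFIT2, 1.07 for IFI44L and 0.73 for IRF7, and -0.78 for ISG15, with limma adjusted p-values of 2.2e-06 to 0.022. Of all genes tested, 63.8% passed the same contrast. MX2 and IFIT1 entered the test only because they were high in the recovered libraries, so the count of 7 supports nothing by itself. Without a filter, their limma adjusted p-values in this contrast were 1.2e-05 and 1.4e-05. IRF7 was -0.41 against control at 0 h, with all 3 libraries below all controls, and 0.31 at 36 h, and neither value passed. The 36 h of further culture and the recovery cannot be told apart in any of them.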

How the results depend on the processing

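At 0 h the count of all genes called, 415, was 193 without a filter, 243 with FPKM of at least 5, 201 after rescaling to the same sum, 241 after rescaling without mitochondrial and the 20 most abundant genes, 5163 with library weights, 116 in a fit of only the 2 groups, 221 with the replicate number as a block and 88 to 457 with 1 library left out. Of the 9 genes, 1 was called at 0 h. That was 0 without a filter, 2 with library weights (IRF7 joined, -0.28), 0 with only the 2 groups, 0 with the replicate block and 0 to 1 with 1 library left out, and the call in question is IRF1. At 36 h the count of 7 was 4 with FPKM of at least 5, where only 4 of the genes were tested, and 6 to 8 with 1 library left out. Between HS0.5-R36 and HS0.5 it was 3 with FPKM of at least 5 and again 6 to 8. IRF1 at 36 h also lost its call with the replicate block (limma adjusted p = 0.0741) and with only the 2 groups (0.087). The replicate block changed no other call among the 9 genes. Signs turned for 3 uncalled values. MX1 at 0 h (0.02) was -0.0079 after quantile normalization and -0.023 with library weights, and -0.058 to 0.087 with 1 library left out. MX2 at 0 h (-0.01) was 0.0056 with a pseudocount of 0.1, 0.013 after rescaling without mitochondrial and the 20 most abundant genes, 0.013 after quantile normalization and 0.023 with voom, and -0.097 to 0.068 with 1 library left out. IRF1 between HS0.5-R36 and HS0.5 was 0.15 and 0.11 after the rescalings and 0.12 after quantile normalization. The causes were not tested. At 36 h against control, rises made up 45.2% of all calls, 68.7% and 70.3% after the rescalings and 33.7% with FPKM of at least 5. The control spread of ISG15 and the few reads of IRF9 limit what 3 libraries a group can show.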

Other observations

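Interferon genes that the table names by family, IFN-ALPHA, IFN-OMEGA and IFN-DELTA, were looked at after values had been seen. How reads shared by such genes were counted was not given in the sources used here, and their sequences were not compared. The split between the 10 genes is therefore uncertain, and the highest value of any was 0.606 FPKM. Together they had 19, 16 and 26 reads in the control libraries, 18, 21 and 28 in HS0.5 and 102, 99 and 69 in HS0.5-R36. Their summed FPKM was 0.228 to 0.616 in control, 0.460 to 0.527 in HS0.5 and 1.27 to 1.81 in HS0.5-R36, so the recovered libraries lay above the others. Genes with little signal were also higher there as a whole: the 6467 genes with a mean under 0.1 FPKM over all libraries summed to 109 to 126 FPKM in control, 115 to 128 in HS0.5 and 196 to 201 in HS0.5-R36. The part of that rise in the interferon counts was not tested.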
